A study of Schizosaccharomyces pombe with 8 samples.

Results

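The annotated protein-coding genes of at least 4500 nt were examined in wild-type fission yeast, Schizosaccharomyces pombe. A gene counted as long when its row in the deposited table, from the annotated start to the annotated stop of the transcript, spanned 4500 nt or more on chromosome I, II or III. This rule uses only length, and it gave 251 of 5118 genes on the 3 chromosomes (4.90%), with 121 on chromosome I, 80 on chromosome II and 50 on chromosome III. Chromatin was immunoprecipitated and sequenced (ChIP-seq) with antibodies against histone H3, H3 acetylated on lysine 14 (H3K14ac) and acetylated histone H4 (H4ac), with 2 replicates each, described in the study as biological. All libraries came from 1 wild-type strain in exponential growth, and no mutant or treatment is part of the comparison. The labels also list 2 Input libraries, which were not analysed here.

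Histone tails are acetylated by acetyltransferases that are often recruited with activators at the start of genes, and deacetylases remove the mark again over transcribed bodies. Nucleosomes tend to be depleted at active promoters and dense over coding sequence. Acetylated H3 and H4 tails are therefore usually read relative to H3, as was done here. Several of the largest yeast proteins are encoded by long genes, among them dynein, the kinases Tor1, Tor2, Rad3 and Tel1, the glucan synthases of the cell wall, and the ribosome assembly ATPase midasin.

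Values are tag densities (tags per nt of the row), and the log2 ratio of H3K14ac or H4ac to H3 was computed after adding 0.01 to each density. Multiplied by the row length, the values of each library are whole multiples of 1 step. Each library thus carries 1 scaling factor, whose basis is not given in the sources used here. A log2 ratio of 0 therefore marks equal scaled densities, close to the median gene (0.01 for both marks), and not an absolute level of acetylation. Both ratios use the same H3 libraries, so they are given side by side and not as independent measures. In a culture, fewer cells carrying a mark and less of the mark in each cell cannot be told apart. All 251 long genes passed the filter on low densities, and each held 1878 to 36662 tags per library. Between replicates, the log2 difference of these genes had an SD of 0.03 in the H3 libraries and 0.04 in those of either mark. Counting error alone gives 0.02 at the mean number of tags.

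A long row is not always a long protein. Only 97 of the 251 genes had 4500 nt or more of coding sequence, whereas the other 154 reached the threshold through annotated untranslated sequence or introns. Coding sequence made up at least 80% of the row in 132 genes, 50 to 80% in 60 and under 50% in 59, with a median of 81.9% and a minimum of 9.59% in alp41, which encodes a small GTPase needed for microtubule assembly. Lengths ran from 4521 nt (msn5, a karyopherin) to 15252 nt (sib1, which encodes the ferrichrome synthetase), with a median of 5352 nt against 1887.5 nt for all genes of the 3 chromosomes. Another gene row overlapped 146 of the 251, in 74 cases over 25% or more of the length, and tags of such shared stretches are counted in both rows. Of 11 overlapping pairs within the set, 6 shared at least 50% of a row on opposite strands (alp41 and mug62, ams1 and dhd1, msw1 and peg1, rad3 and swi1, esf2 and lvs1, prp17 and fab1), so these 12 genes are not independent of their partner. Just outside the threshold, nup146 (4490 nt), clr4 (4492 nt) and psm1 (4498 nt) had log2 H3K14ac/H3 of -0.72, -0.39 and -0.68. Just inside it, msn5 (4521 nt), pdr1 (4525 nt) and rsv2 (4529 nt) had -1.0, -0.77 and -0.33.

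Sequences are shown for 3 kinds of long gene on which the results below turn, all from RefSeq (assembly ASM294v3), 5′ to 3′, as coding sequence only. The starts of coding sequence are given for the least acetylated large cell-wall enzymes, for the most acetylated rows and for the longest gene, with the start codon in capitals. In mbx2 the start codon lies 4059 nt into the row, in bgs4 1560 nt, in ags1 1076 nt, in mre11 1044 nt and in sib1 177 nt.
ags1 (III:1374172-1374231, plus strand): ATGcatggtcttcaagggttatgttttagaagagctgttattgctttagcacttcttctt
bgs4 (III:2255087-2255146, minus strand): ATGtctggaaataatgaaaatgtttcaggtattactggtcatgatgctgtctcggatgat
mre11 (I:436214-436273, plus strand): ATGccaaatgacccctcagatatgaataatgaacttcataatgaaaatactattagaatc
mbx2 (II:3626639-3626698, plus strand): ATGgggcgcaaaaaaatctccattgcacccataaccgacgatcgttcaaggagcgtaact
sib1 (I:869468-869527, minus strand): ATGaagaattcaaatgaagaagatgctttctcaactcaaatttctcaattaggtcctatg

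Long genes carried more H3 and less acetylation than other genes. The median H3 density was 1.41 tags per nt in the long genes against 1.23 in the other genes, and 213 of 251 lay above the median of all genes. Median densities of the long genes in replicates 1 and 2 were 1.41 and 1.42 for H3, 0.885 and 0.892 for H3K14ac, and 0.973 and 0.967 for H4ac. In the other genes the medians of the replicate means were 1.26 for H3K14ac and 1.25 for H4ac. Relative to H3, long genes had a median log2 H3K14ac of -0.70 where the others had 0.05, and a median log2 H4ac of -0.55 where the others had 0.04. The gap of -0.75 for H3K14ac is 1.68-fold on the linear scale, and that for H4ac was -0.59. The medians of the replicate pairs were -0.70 and -0.69 for H3K14ac/H3 in the long genes, which is a far smaller spread than the gap to other genes.

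Each gene was tested with limma on log2 density, with Benjamini-Hochberg adjustment over the 5128 genes that passed the filter. H3K14ac was lower than H3 in 212 of the 251 long genes and higher in 25 at an adjusted p under 0.05, against 45.9% lower and 47.4% higher over all 5128 genes. H4ac was lower than H3 in 207 and higher in 31, against 45.5% and 47.1% over all genes. With a change of at least 1.5-fold in addition, 138 were lower and 5 higher for H3K14ac, where all genes gave 20.4% and 24.8%. The same rule gave 117 lower and 6 higher for H4ac, where all genes gave 18.6% and 22.9%. Among the 97 genes with at least 4500 nt of coding sequence, H3K14ac was lower than H3 in all 97 and H4ac in 96, the exception being vps1301. The replicates share a strain and a protocol, and p-values measure only the spread between these samples.

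Both ratios fell with length over all tested genes of chromosomes I, II and III. On a straight line through 5117 genes, log2 H3K14ac/H3 changed by -0.46 and log2 H4ac/H3 by -0.39 for each doubling of the row length (Pearson's r of -0.51 and -0.45 across genes, which share libraries and are not replicates). The median log2 H3K14ac/H3 was 0.97 in genes under 1000 nt, 0.24 at 1000 to 2000 nt, -0.23 at 2000 to 3000 nt and -0.44 at 3000 to 4500 nt. In the long genes it was -0.55 at 4500 to 6000 nt (n = 184), -0.92 at 6000 to 8000 nt (n = 48) and -1.02 above 8000 nt (n = 19). For H4ac the 3 ranges of long genes had medians of -0.45, -0.73 and -0.89. H3 itself rose from a median of 0.94 tags per nt under 1000 nt to 1.47 above 8000 nt. Within the 251 genes, log2 H3K14ac/H3 had a Spearman's rho of -0.65 with the length of coding sequence and -0.62 with its share of the row. The rho with the length of the row was -0.33. The rule for long genes limits the range of row length, so these values do not rank the measures. Over all 5117 genes, rho was -0.60 for coding length, -0.34 for coding share and -0.54 for row length.

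**Figure D1:**
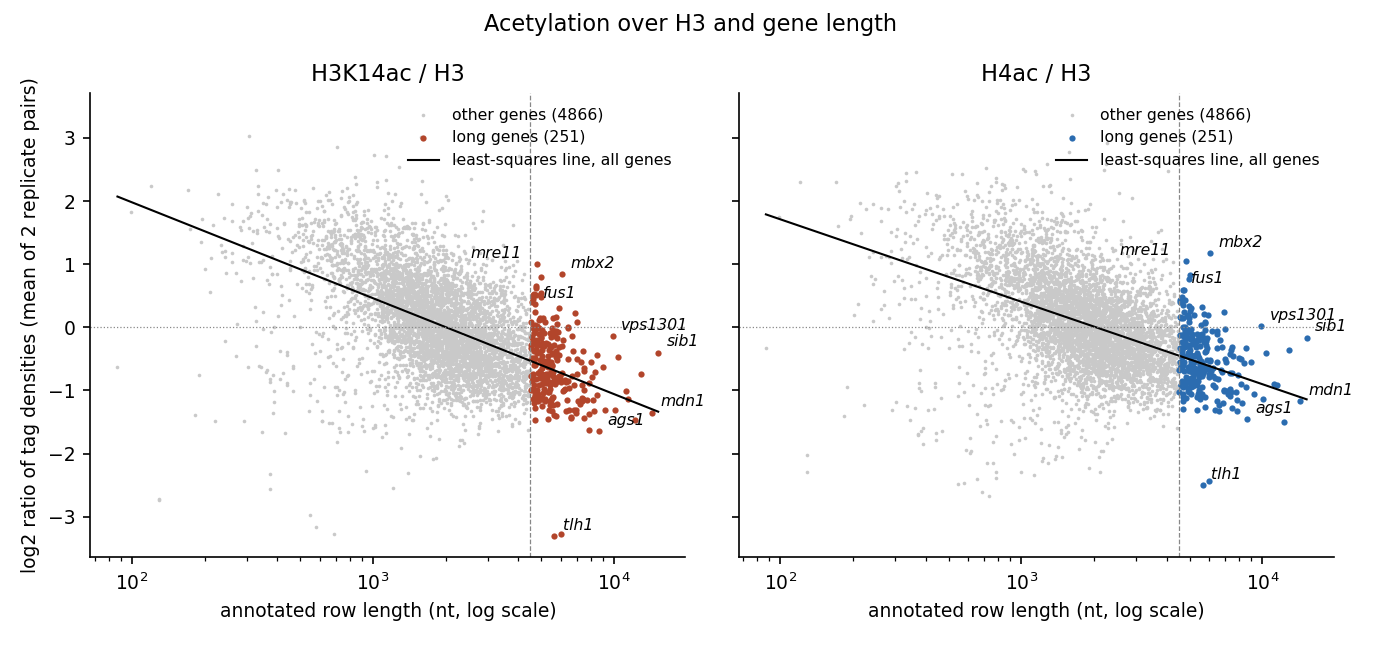
Log2 ratio of H3K14ac to H3 (left) and of H4ac to H3 (right) against row length on a log axis, 1 point per gene, with the 251 long genes in colour and the least-squares line of all 5117 genes. The long genes scatter on both sides of the falling line, from mre11 at 1.00 to tlh1 at -3.31 for H3K14ac/H3, and sib1, the longest at 15252 nt, lies well above it.

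The share of coding sequence separated long genes into levels. The median log2 H3K14ac/H3 was -0.92 in rows with at least 80% coding sequence, -0.42 at 50 to 80% and -0.25 under 50%, and the H4ac/H3 medians were -0.79, -0.32 and -0.19. The same order held in the other genes, where the H3K14ac/H3 medians were -0.35, 0.05 and 0.39. In every class the long genes had the lower median.

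The row was therefore divided into its coding exons and the noncoding rest (untranslated sequence and introns), a division chosen after the data had been seen. Over coding exons alone, the median log2 H3K14ac/H3 fell from 1.02 in genes under 1000 nt to -0.73 at 3000 to 4500 nt, and on to -0.87, -1.15 and -1.18 in the 3 ranges of long genes. Over the noncoding rest of at least 500 nt, the median was 0.65 in the shortest genes and 0.42, 0.56 and 0.50 in the 3 ranges of long genes. For H4ac the coding medians of the long genes were -0.73, -0.87 and -0.98, and those of the noncoding rest were 0.52, 0.36 and 0.53. Across the whole set of long genes, the coding medians were -0.94 for H3K14ac and -0.77 for H4ac. The medians thus fell with length over coding sequence, whereas those of the noncoding rest of H3K14ac stayed between 0.42 and 0.65 over the whole range of lengths.

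**Figure D2:**
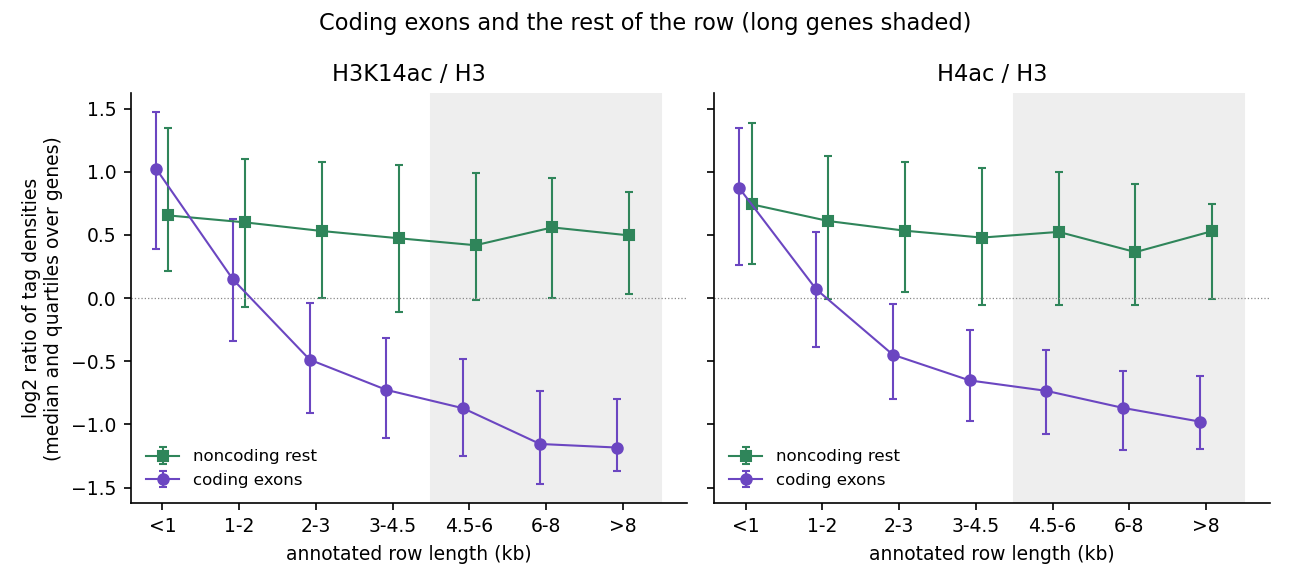
Median log2 ratio to H3 over coding exons (circles) and over the noncoding rest of the row (squares) by row length, with bars from the lower to the upper quartile of genes, for H3K14ac (left) and H4ac (right). The coding medians fall to -1.18 and -0.98 in the longest genes, while the noncoding medians of the long genes stay between 0.36 and 0.56.

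This contrast was tested within genes in which both the coding exons and the noncoding rest spanned at least 500 nt. The rest had a higher H3K14ac/H3 than the coding exons in 148 of 176 long genes and a lower one in 22, against 77% and 15.3% of 2558 genes tested. For H4ac/H3 the counts were 145 and 20, against 80.8% and 11.3%. The rest was thus higher in 84.1% and 82.4% of the long genes, near the shares of all genes tested, so the contrast is not particular to long genes. The rest exceeded the coding exons by a median log2 difference of 1.38 in H3K14ac/H3 and of 1.20 in H4ac/H3. Tags at the boundary of an exon may be counted in the exon, the rest or both, since how a tag was assigned is not given in the sources used here. In the 59 of these genes that overlap no other gene row, the rest was higher in all 59 for H3K14ac, with a median difference of 1.94, and in 57 for H4ac. The matching share over all genes without overlap was not computed. H3 went the other way, with a median density of 1.55 tags per nt in coding exons and 0.900 in the rest.

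The difference was smallest where little of the noncoding sequence was 5′ leader. Where at least 80% of the rest was 5′ leader, the median difference was 1.88 and all 36 genes were higher in the rest for H3K14ac/H3. Where 20 to 80% was leader, it was 1.74 (n = 73), and the H4ac/H3 difference of 1.56 was larger than the 1.46 of the genes with at least 80% leader. Where under 20% was leader, the H3K14ac/H3 difference was 0.46, with 41 of 67 genes higher and 20 lower. The matching shares over all genes by leader share were not computed, so this split is not read as particular to long genes. The largest differences were in gcn2, the eIF2α kinase of the starvation response (3.07), ape2, an aminopeptidase (3.07), and sec16, a scaffold of COPII vesicle formation (2.97). The difference was reversed in alp41 (-2.57), esf2 (-1.61), SPCC320.06 (-1.54) and cog2 (-1.48), whose rows end in annotated trailers of 4972, 4119, 5636 and 4005 nt. In alp41 the coding exons had a log2 H3K14ac/H3 of 1.55 and the rest -1.02, and 82.0% of that row is also part of other gene rows. These 7 genes were named after their values were seen.

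Coding exons showed the same dependence on position. In 114 coding exons of 200 to 1500 nt from 62 long genes, the median log2 H3K14ac/H3 was 1.11 where the exon midpoint lay within 500 nt of the 5′ end of the row (16 exons) and -0.02 at 500 to 1000 nt (15 exons). It was -0.81 at 1000 to 1500 nt (16 exons), and between -0.88 and -0.76 in each of the ranges farther in. H4ac/H3 had medians of 0.64, 0.03 and -0.59 over the same first 3 ranges, and between -0.67 and -0.54 beyond them. H3 density rose from a median of 1.30 in the range nearest the 5′ end to 1.67 tags per nt beyond 4000 nt. Exons of 1 gene share their libraries and neighbourhood, and this profile was chosen after the data had been seen.

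**Figure D3:**
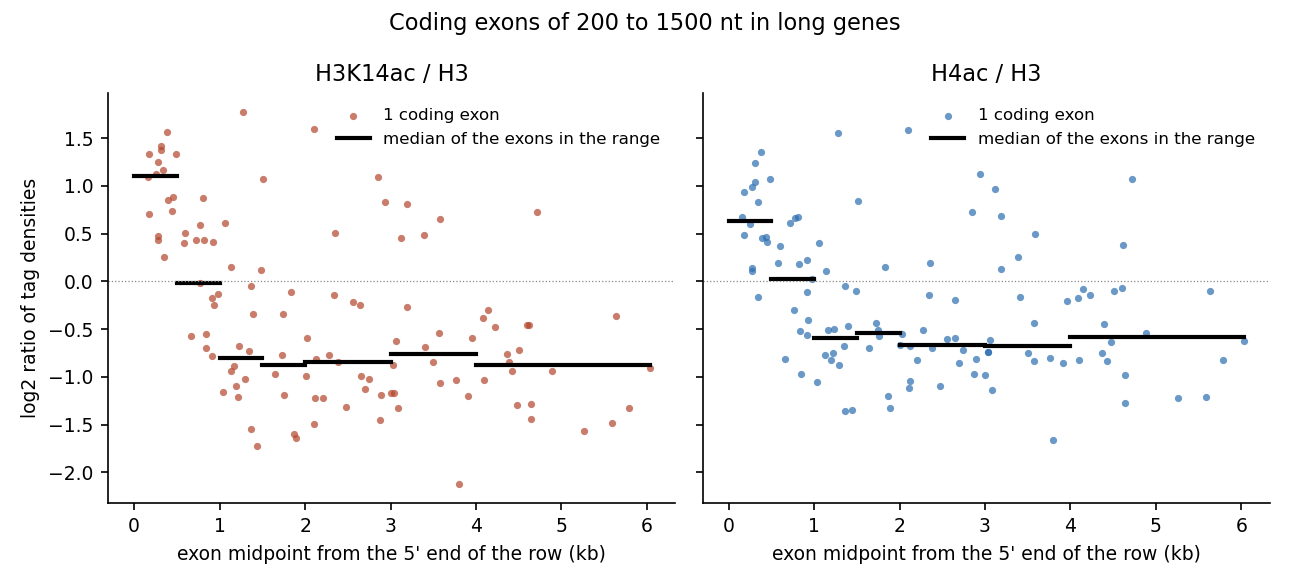
Log2 ratio to H3 of 114 coding exons of 200 to 1500 nt in 62 long genes against the distance of the exon midpoint from the 5′ end of the row, for H3K14ac (left) and H4ac (right), with black bars for the median of each range. Medians drop from 1.11 and 0.64 within 500 nt to -0.81 and -0.59 at 1000 to 1500 nt and stay low from there.

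The coding exon nearest the 5′ end was then compared with the one nearest the 3′ end in the 28 long genes in which both spanned at least 200 nt. The first exon had a higher H3K14ac/H3 than the last in 26 genes and a lower one in 1, where all 416 genes tested gave 85.6% and 9.13%. H4ac/H3 was higher in 26 and lower in 2, where all genes gave 77.9% and 13.2%. The high shares are thus those of spliced genes in general. In shd1, which encodes an endocytic protein of the Sla1 family, H3K14ac densities were 2.90 and 2.87 tags per nt in the first exon and 0.562 and 0.566 in the last. H3 had the opposite order in shd1, at 1.15 and 1.12 in the first exon and 1.75 and 1.77 in the last. The log2 difference in H3K14ac/H3 between the exons of shd1 was 2.96 ± 0.07 (SE, 2 replicates per antibody). Next came ucp12, an RNA helicase (2.71), dna2, the nuclease-helicase of Okazaki fragment maturation (2.63), dnf2, a phospholipid flippase (2.52), and pms1, a mismatch repair protein (2.36).

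At the other end, SPAC4F10.16c, a P-type ATPase, had the reverse order (-0.45 ± 0.07 SE), with a first exon of 3527 nt and a last exon of 577 nt. In sib1, whose exons span 6373 and 8402 nt, the H3K14ac/H3 difference was -0.08 ± 0.07 SE and missed the threshold (adjusted p = 0.317 by limma). The next lowest were cut1, the separase (0.40), irc20 (0.51) and naa35 (0.51). The exons of shd1 are printed because they have the largest difference; the first coding exon (start codon in capitals) and an equal length at the end of the last one (stop codon in capitals) are 37.6% and 40.6% GC.
shd1, first coding exon (I:3499049-3499282, plus strand): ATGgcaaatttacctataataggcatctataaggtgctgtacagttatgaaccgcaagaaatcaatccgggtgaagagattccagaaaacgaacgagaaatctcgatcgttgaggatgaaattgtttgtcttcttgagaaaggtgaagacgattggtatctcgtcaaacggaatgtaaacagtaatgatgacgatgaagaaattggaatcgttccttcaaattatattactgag
shd1, end of the last coding exon (I:3503224-3503457, plus strand): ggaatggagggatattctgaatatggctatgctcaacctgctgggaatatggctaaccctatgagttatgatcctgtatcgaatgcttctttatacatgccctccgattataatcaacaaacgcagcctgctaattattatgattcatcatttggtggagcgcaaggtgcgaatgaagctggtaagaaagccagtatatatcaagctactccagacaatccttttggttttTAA

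Outside repeated sequence, the lowest ratios were those of ags1 and bgs4, enzymes of the cell wall. In ags1, which encodes the essential α-glucan synthase of vegetative cells, H3 densities were 1.41 and 1.46, H3K14ac densities 0.455 and 0.451, and H4ac densities 0.518 and 0.520 tags per nt. In bgs4, the major β-glucan synthase, they were 1.24 and 1.24, 0.403 and 0.388, and 0.490 and 0.483. In both genes every acetylation library lay far below both H3 libraries, with log2 H3K14ac/H3 of -1.64 ± 0.04 and -1.62 ± 0.04 (SE). Their H4ac/H3 ratios were -1.45 and -1.33. Next came cek1, a protein kinase (-1.46), chc1, the clathrin heavy chain (-1.45), ubr11, a ubiquitin ligase (-1.44), glt1, glutamate synthase (-1.43), not1, the scaffold of the Ccr4-Not complex (-1.41), and fas2, a fatty acid synthase subunit (-1.41). For H4ac, not1 (-1.33) and sec31, a COPII coat protein (-1.31), were also among the 8 lowest.

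**Figure D4:**
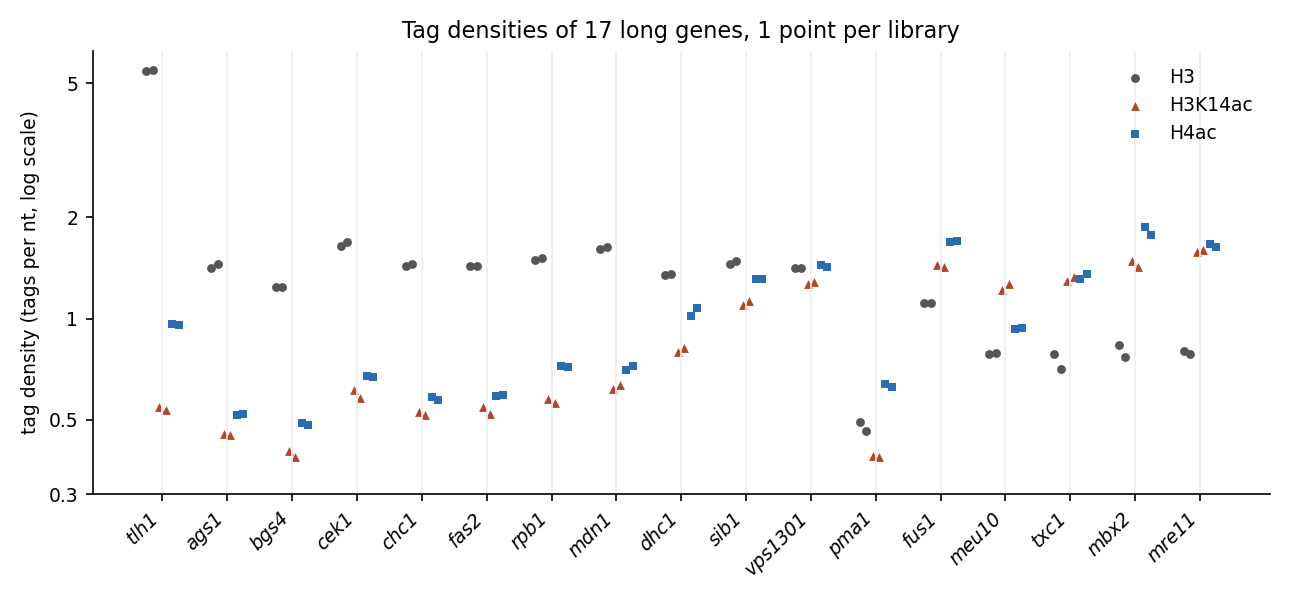
Tag densities of 17 long genes on a log axis, with 1 point per library for H3 (circles), H3K14ac (triangles) and H4ac (squares). H3 lies above both marks from tlh1 to sib1, the order turns in vps1301 and pma1, where H4ac reaches or passes H3, and both marks exceed H3 from fus1 to mre11.

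Of the 8 genes with the highest H3K14ac/H3, 7 had under 50% coding sequence, from 12.5% in txc1 to 40.5% in mre11, and npg1 had 61.4%. In mre11, which encodes the nuclease of the double-strand break repair complex, H3 densities were 0.801 and 0.783, H3K14ac densities 1.58 and 1.60, and H4ac densities 1.66 and 1.63 tags per nt. Both marks were about double the H3 level in every library pair, with log2 ratios of 1.00 ± 0.03 and 1.05 ± 0.03 (SE). In mbx2, a MADS-box transcription factor gene whose coding sequence is 18.4% of the row, H3 densities were 0.833 and 0.770, H3K14ac 1.48 and 1.42, and H4ac 1.87 and 1.77. The mbx2 row had the highest H4ac/H3 of all long genes (1.17), and an antisense XUT covered 97.2% of it. The coding sequence of mbx2 alone had a log2 H3K14ac/H3 of -0.46 and a log2 H4ac/H3 of 0.38. In mre11 the coding exons alone had 0.48 and 0.47. Then followed txc1, a proteasome-interacting protein (0.80, 12.5% coding), meu10, a GPI-anchored protein of the spore wall (0.66), the uncharacterised SPBC119.16c (0.63) and SPBPB7E8.01 (0.55), npg1 (0.52) and agp3, an amino acid transporter (0.51).

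For 26 long genes both ratios were above 0 in both replicate pairs. Coding sequence was under 50% of the row in 14 of them, 50 to 80% in 10, and at least 80% in only 2, fus1 and irc20. The noncoding rest had a log2 H3K14ac/H3 above 0 in all 26, whereas the coding exons did so in 10 and were below 0 in 16. These genes were chosen by the ratio of the whole row, so a rest above 0 is partly set by the choice. In the 176 long genes with a rest of at least 500 nt, the rest had a median of 0.46 and a lower quartile of -0.02. Of these 26, 16 were overlapped over at least 25% of their length by another gene row and 6 by none. In fus1, which encodes the formin that assembles the actin focus of mating cells, 88.0% of the row is coding. Its H3 densities were 1.11 and 1.12, its H3K14ac densities 1.44 and 1.43, and its H4ac densities 1.69 and 1.70 tags per nt. All acetylation values of fus1 exceeded both H3 values, with log2 ratios of 0.36 ± 0.02 and 0.60 ± 0.02 (SE), and its coding exon alone had 0.23 and 0.55.

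Among the longest rows, some lay on the length line and some far above it. The residual is the log2 ratio minus the value of the line at the gene's length. In mdn1, which encodes midasin (14362 nt), H3 densities were 1.61 and 1.63, H3K14ac 0.619 and 0.634, and H4ac 0.702 and 0.721 tags per nt, with residuals of -0.06 and -0.07. In sib1 (15252 nt), H3 densities were 1.45 and 1.48, H3K14ac 1.10 and 1.12, and H4ac 1.31 and 1.31, with residuals of 0.94 and 0.98. The H3 of sib1 was thus a little below that of mdn1, but its acetylation was far higher in every library. In vps1301, a lipid transfer protein gene of 9886 nt, H3 densities were 1.41 and 1.41, H3K14ac 1.27 and 1.29, and H4ac 1.45 and 1.42. The residuals of vps1301 were 0.91 and 0.92, and its H4ac/H3 of 0.02 did not pass the test (adjusted p = 0.387 by limma). The dynein heavy chain gene dhc1 (12946 nt) had residuals of 0.49 and 0.68, and rad3, the ATR checkpoint kinase (10377 nt), 0.60 and 0.52. Since rad3 shares 60.3% of its row with swi1 on the other strand, its value is not its own. On the line lay tra2 (0.00 and 0.06) and tra1 (0.12 and 0.06), of 11451 and 11183 nt, and below it ptr1, a ubiquitin ligase of 10097 nt (-0.25 and -0.22), and vps1302 (-0.30 and -0.21).

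Over all long genes the H3K14ac/H3 residual was above 0 in 129 of 251, and the H4ac/H3 residual in 131. It was above 0 in 53 of the 59 genes with under 50% coding sequence for H3K14ac and in 50 for H4ac. Of the 97 genes with at least 4500 nt of coding sequence, 23 and 27 were above the line. The highest residuals were those of mbx2 (1.58 for H3K14ac and 1.79 for H4ac), mre11 (1.57 and 1.53) and txc1 (1.40 and 1.34). The lowest outside repeated sequence were those of cek1 (-0.90 and -0.82), chc1 (-0.81 and -0.76), tif471, encoding eIF4G (-0.73 for H3K14ac), bgs4 (-0.73 for H3K14ac), rpc1, the largest subunit of RNA polymerase III (-0.70 for H4ac), and fas2 (-0.67 for H4ac).

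Functions were taken from 15 lists of known genes that held 126 of the 251. No list was tested as a set, and each median stands beside -0.70 and -0.55 for all long genes and 0.01 and 0.01 for all genes of the 3 chromosomes. The counts of lower genes in each list are to be read against 84.5% of all long genes for H3K14ac and 82.5% for H4ac. Listed genes more often had rows of mostly coding sequence, with at least 80% coding sequence in 95 of the 126 listed and in 37 of the 125 unlisted genes. The H3K14ac/H3 medians of listed and unlisted genes were -0.83 and -0.43. The part of this difference in coding share in the values of a list was not tested.

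Metabolic enzymes had the lowest H3K14ac/H3 median of the lists (-1.36), and all 7 were lower than H3 for both marks. Their H4ac/H3 median of -1.01 lay above those of ubiquitin ligases (-1.13) and translation genes (-1.06). They included glt1 (-1.43), fas2 (-1.41), fas1, the other fatty acid synthase subunit (-1.36), and sir1, sulfite reductase (-1.14), whereas sib1 stood apart at -0.40. Of the 3 translation genes, gcn1 (-1.32) and tif471 (-1.28) were low and gcn2 was at -0.29. The 3 ubiquitin ligases ubr11 (-1.44), ptr1 (-1.32) and ubr1 (-0.86) were all lower than H3. In RNA processing and ribosome assembly 13 of 14 were lower for both marks, led by not1 (-1.41) and mdn1 (-1.35), and puf5, an RNA-binding protein, was at -0.27. The exception was dhp1, the nuclear 5′-3′ exoribonuclease, in which H3K14ac (0.15) and H4ac (0.33) were higher than H3 over the row. Its coding exons alone had -0.82 and -0.69 and its noncoding rest 1.25 and 1.47, and other gene rows overlap 34.0% of it.

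Chromatin and transcription genes were lower than H3 in 11 of 11 for both marks, with a median of -0.86 for H3K14ac/H3. The largest subunits of RNA polymerases II, I and III, encoded by rpb1 (-1.39), nuc1 (-1.22) and rpc1 (-1.19), had the lowest values of that list. At its other end were snf22, the SWI/SNF ATPase (-0.55), and hip3, a histone chaperone (-0.52). All 14 genes of membrane traffic were lower for H3K14ac (median -0.85) and 12 for H4ac, with chc1 (-1.45) and sec31 (-1.33) lowest, and trs130 (-0.17) and vps1301 (-0.14) highest. For transporters the counts were 10 of 13 lower for H3K14ac and 11 for H4ac, and H4ac was higher in 1, pma1. The lowest transporters were dnf1 (-1.14) and abc2 (-1.09), and abc3 (0.00) and cta3, a P-type ATPase (0.02), did not pass the test for H3K14ac.

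Nucleoporins were lower in 5 of 6, from nup189 (-1.16) and nup211 (-0.87) to alm1 (-0.61), and nup132 was higher (0.30 for H3K14ac and 0.19 for H4ac). The coding exons of nup132 alone had -0.48 and -0.50 and its noncoding rest 1.28 and 1.10, and other gene rows overlap 33.6% of it. The cytoskeletal list had 9 of 10 lower for H3K14ac and 8 for H4ac, from pan1, an actin patch protein (-1.23), and myo2, the cytokinetic myosin heavy chain (-1.12), to myo51 (-0.27) and fus1. Signalling kinases and regulators were lower in 11 of 11 for both marks, with cek1 (-1.46) and win1, a MAP kinase kinase kinase (-1.24), lowest and gap1 (-0.60) and ppk18 (-0.32) highest.

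DNA replication, repair and segregation genes had a higher median (-0.49 and -0.38) than the lists named so far, and 12 of 12 were lower than H3 for H3K14ac and 11 for H4ac. They included top2, topoisomerase II (-0.13), and cdc6, the catalytic subunit of DNA polymerase δ (-0.15). The list also holds tlh1 and tlh2, which set its lowest values. Of the 3 cell-surface genes, gsf2 was at -0.92, adg3, a β-glucosidase, at -0.40 and pfl5 at -0.25. Of the 3 listed transcription factors, phx1 (-0.58) and cbf12 (-0.30) were lower than H3 and mbx2 was higher.

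**Figure D5:**
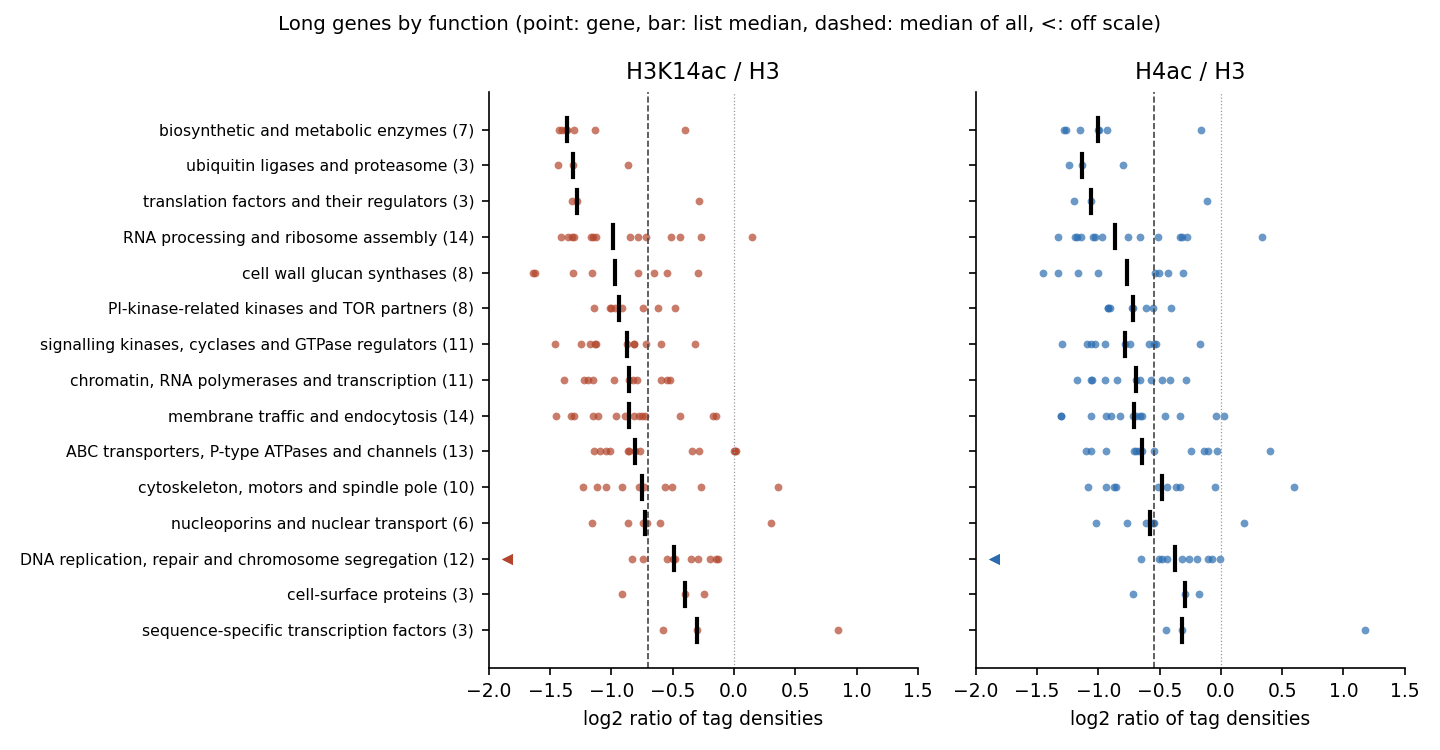
Log2 ratio to H3 of 126 long genes in 15 function lists, for H3K14ac (left) and H4ac (right), with 1 point per gene, a black bar at the list median and a dashed line at the median of all 251 long genes (-0.70 and -0.55). Metabolic enzymes have the lowest H3K14ac/H3 median (-1.36), transcription factors the highest (-0.30), and the triangle marks tlh1 and tlh2, which lie off the scale.

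The 8 glucan synthases (medians of -0.97 and -0.77) and the 8 genes of PI-kinase-related kinases and TOR partners (medians of -0.94 and -0.72) were lower than H3 for both marks in every gene. Related genes of similar length could differ widely, as in families that were named after their values were seen. Among the α-glucan synthases, ags1 was at -1.64, whereas mok12 and mok13, 2 relatives known from sporulation, were at -0.78 and -0.55 and mok11 at -0.65. H3 densities of mok13 were 1.40 and 1.41 and those of ags1 1.41 and 1.46, so the gap lay in the acetylation libraries. Among the β-glucan synthases, bgs4 (-1.62), bgs1 (-1.31) and bgs3 (-1.16) were low, and bgs2, which is needed for the spore wall, was at -0.29. The H4ac/H3 of bgs2 (-0.53) was lower than its H3K14ac/H3, the reverse of the other 3 genes. Of the formins, for3 (-0.91) and cdc12 (-0.77) act in polarity and cytokinesis, and the mating formin fus1 was at 0.36. The lipid transfer protein genes vps1302 and vps1301 were at -1.30 and -0.14, with replicate pairs of -1.31 and -1.30 against -0.16 and -0.13. The type V myosin genes myo52 and myo51 were at -1.04 and -0.27, and the type II genes myo2 and myp2 at -1.12 and -0.51. In all of these families the replicate pairs of 1 gene lay within 0.09 of each other.

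In some further families the values were closer, and in others, such as the tricalbins, they also differed widely. The H3K14ac/H3 of tor1 and tor2, the catalytic kinases of TORC2 and TORC1, was -1.0 and -0.91. It was -1.13, -1.17 and -1.14 in mak1, mak2 and mak3, the phosphorelay sensor kinases of the stress response. Among the ubiquitin ligases, ubr11 was at -1.44 and ubr1 at -0.86, and among the tricalbins, membrane contact proteins, tcb1 was at -1.14, tcb3 at -0.54 and tcb2 at -0.20. The H3K14ac/H3 was -1.02 and -1.14 in tra1 and tra2, and -0.48 and -0.62 in rad3 and tel1, the ATR and ATM kinases. Among DNA polymerase genes, cdc20 (polymerase ε, -0.74) and pol1 (polymerase α, -0.55) were lower than cdc6 (-0.15) and rev3 (polymerase ζ, -0.19), and an antisense XUT covered 99.4% of rev3.

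An antisense XUT (asXUT) is a cryptic noncoding RNA, degraded by the cytoplasmic exonuclease Exo2, that overlaps a gene on the other strand. By an overlap of at least 50 nt, 77 of the 251 long genes had one (30.7%), against 21.2% of all genes on the 3 chromosomes. The median log2 H3K14ac/H3 was -0.42 in these 77 and -0.80 in the other 174, and H4ac/H3 was -0.31 and -0.66, with a median H3 density of 1.41 in both. Among the 97 genes of at least 4500 nt of coding sequence, the H3K14ac/H3 medians were -0.75 with an asXUT (n = 26) and -1.13 without (n = 71). Among the family members above, myo51, fus1, vps1301, bgs2 and mok13 had 33.5%, 41.2%, 15.8%, 21.9% and 29.0% of their row covered, and ags1, bgs1, bgs3, bgs4, vps1302, myo52, myo2 and for3 had none. There were exceptions in both directions, as cdc12 (-0.77) had 29.6% covered and mok11, mok12 and myp2 had no asXUT. In further families, tra2 (-1.14) had 8.73% covered and tra1 (-1.02) none, and cdc20 (-0.74) had 3.76% and pol1 (-0.55) none. The remodeller gene hrp3 (-0.82) had 29.9% covered and hrp1 (-0.59) 9.03%. In contrast, tor2 (15.8% covered) was higher than tor1 (none), and tcb2 (97.9%) was higher than tcb1 and tcb3 (none). These values are a description, and the part of the asXUT in them was not tested.

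Shorter noncoding transcripts that lie wholly inside the long rows were compared by their position along the gene. There were 142 such features in 91 long genes. Their median log2 H3K14ac/H3 on the antisense strand was 0.93 in the 5′ part of the row (24 features), -1.0 in the middle (30) and -0.56 in the 3′ part (33), where each part is the same share of the length. On the same strand as the gene it was 0.99 (23), -1.11 (14) and 0.31 (18). The H4ac/H3 medians were 0.87, -0.74 and -0.18 on the antisense strand, and 0.80, -0.83 and 0.27 on the same strand. On both strands the medians were high in the 5′ part and low in the middle, and in the 3′ part they were below 0 on the antisense strand and above 0 on the same strand, a difference that was not tested. ChIP tags carry no strand, so a feature shares its tags with the row around it.

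The 2 marks were compared with each other by limma as well. H3K14ac was lower than H4ac in 176 long genes and higher in 23, against 36.6% and 32.9% of all genes. The differences were small. The share of all genes that pass 1.5-fold here is not given, so the count at that fold is not read as a trait of long genes. Only 3 long genes passed it, all with less H3K14ac. These were tlh2 (-0.83), tlh1 (-0.81) and pma1 (-0.69). In pma1, the plasma membrane proton pump and one of the most expressed genes of yeast, H3 densities were 0.491 and 0.462, H3K14ac 0.390 and 0.388, and H4ac 0.641 and 0.625 tags per nt. All 6 values of pma1 were low, its H3 was the lowest of all long genes, and H4ac exceeded H3 (0.40 ± 0.06 SE) while H3K14ac did not (-0.28 ± 0.06 SE). Next were abo1, a histone chaperone ATPase (-0.43), and tho2, of the THO complex (-0.42). More H3K14ac than H4ac was seen in meu10 (0.41), mrpl24 (0.34), mug24, an RNA-binding protein (0.32), cta3 (0.26) and pabp, the poly(A)-binding protein (0.25). After pma1, the lowest mean H3 densities were those of SPBPB7E8.01 (0.737), txc1 (0.746), meu10 (0.787), mre11 (0.792) and bdf2, a bromodomain protein (0.795).

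Repeated sequence held the extremes at the other side. Uniqueness was computed over 50-mers of the coding exons only, so the noncoding rest of the rows was not checked. Of the long genes, 6 had under 90% of these 50-mers unique in the reference genome, whereas 242 had 99% or more unique. The helicase genes tlh1 and tlh2 lie at chromosome ends, tlh1 at I:1-5662 and tlh2 at II:4526885-4532899, with 0.890% and 2.59% of their 50-mers unique, and 99.1% of the 50-mers of the tlh1 coding sequence occur in tlh2. The first 60 bases of their coding sequences are shown because they are identical, so that no 50-mer within them belongs to 1 copy alone; start codons are in capitals.
tlh1 (I:5603-5662, minus strand): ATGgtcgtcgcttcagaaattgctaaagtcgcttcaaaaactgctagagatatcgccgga
tlh2 (II:4526885-4526944, plus strand): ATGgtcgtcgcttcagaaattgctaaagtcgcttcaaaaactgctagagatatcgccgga
In tlh1, H3 densities were 5.44 and 5.48, H3K14ac 0.546 and 0.536, and H4ac 0.963 and 0.955 tags per nt. In tlh2 they were 5.62 and 5.59, 0.580 and 0.563, and 1.03 and 1.02. Mean H3 was 2.88-fold and 2.95-fold that of gsf2, the next highest long gene (1.90), whereas their H4ac lay close to the median of long genes (0.977) and their H3K14ac below it (0.884). The log2 H3K14ac/H3 was -3.31 in tlh1 and -3.27 in tlh2. With nearly no unique 50-mer, the copy number behind the tag densities of tlh1 and tlh2 cannot be told apart from their level per copy. The study describes unique mapping of reads, but these rows held many tags, so their values are not to be taken as uniquely mapped signal.

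The retrotransposon Tf2-7, with no unique 50-mer (0%), had log2 ratios of -0.48 for H3K14ac and -0.63 for H4ac. The remaining 3 genes of low uniqueness hold internal repeats. For each, the unit is the one that best repeats in its neighbour, and in all 3 the neighbouring unit was identical. SPBPJ4664.02, a predicted glycoprotein gene of 12261 nt with 32.4% of its 50-mers unique, had H3 densities of 1.68 and 1.71, H3K14ac of 0.587 and 0.620, and H4ac of 0.576 and 0.607. The gene thus combined high H3 with low marks, with a log2 H3K14ac/H3 of -1.47 and the lowest H4ac/H3 outside the tlh pair (-1.50). For gsf2, a flocculin (41.9% unique), the ratios were -0.92 and -0.71 with a mean H3 density of 1.90, and for pfl5, another flocculin-like gene (47.2% unique), they were -0.25 and -0.30.
SPBPJ4664.02, unit of 72 nt (II:694646-694717, plus strand): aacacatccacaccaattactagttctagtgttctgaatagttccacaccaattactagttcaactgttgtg
gsf2, unit of 234 nt (III:963007-963240, minus strand): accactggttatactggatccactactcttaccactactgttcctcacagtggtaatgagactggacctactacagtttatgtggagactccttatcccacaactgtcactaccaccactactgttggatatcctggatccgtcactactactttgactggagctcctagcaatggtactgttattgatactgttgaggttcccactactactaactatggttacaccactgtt
pfl5, unit of 105 nt (II:4422133-4422237, plus strand): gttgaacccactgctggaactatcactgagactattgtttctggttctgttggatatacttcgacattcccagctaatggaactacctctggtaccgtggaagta
Without the 6 genes of low uniqueness, the median log2 ratios of the long genes were -0.69 for H3K14ac and -0.55 for H4ac.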

How the data were processed

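H3, H3K14ac and H4ac ChIP-seq from wild-type cells was used, with 2 libraries per antibody. The Input libraries were not analysed here. According to the methods of the study, the authors mapped reads with Bowtie2, kept unique alignments. The labels name assembly ASM294v2. The deposited signal is a tag density per feature, neither divided by Input nor by H3, and the deposited columns that pool replicates were not used. Each density was multiplied by the row length and divided by the step of its library. This gave whole tags for 100% of values, within a tolerance of 0.01. Each library thus carries 1 scaling factor, whose basis is not given in the sources used here.

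Genes were kept where 2 or more libraries reached 0.05 tags per nt (5128, among them 5117 on chromosomes I, II and III). Log2(density + 0.01) was fitted with limma 3.58.1 in R 4.3.3 over the 3 antibodies, with Benjamini-Hochberg adjustment over all genes tested, and the procedure was tested on simulated data. Fold changes are on this log2(density + 0.01) scale, and counting error at the mean number of tags is 0.02 in log2 units. Exon and noncoding-rest comparisons were fitted in the same way over all genes with both parts. The length line is a least-squares fit over the 5117 genes. Other tables and figures used Python 3.11.15, pandas 2.3.3 and matplotlib 3.10.9. Sequences were read from RefSeq ASM294v3, in which 247 of the 251 genes have the coding exons of the deposited table, among them all genes whose sequence is shown.

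The genes, lists and tests were chosen with earlier results of these data known. Named genes are the 8 highest and 8 lowest for each ratio, the 6 extremes at each end for residuals and H3, the 5 largest differences between marks and between exons in each direction, the 10 longest rows, the 3 genes on either side of the threshold and up to 4 extremes per list. Families, the noncoding rest, exon distances and features inside rows were chosen after values were seen. Alternatives were other pseudocounts, no filter, median centring, voom on recovered tags, other length thresholds, coding length, unique sequence only, a replicate block, and each library left out.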

Additional observations from a re-analysis of the deposited data

How the results depend on the processing

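Of 265 values of the counts, medians and slopes under an alternative, 214 stayed within the spread or within 1.5 times the reported count, and 51 did not. The pseudocount of 0.1 moved the medians to -0.65 for H3K14ac/H3 and -0.51 for H4ac/H3, the differences from other genes to -0.69 and -0.55, and the slopes to -0.43 and -0.37. Centring each library on its median gave -0.54 for H4ac/H3. With at least 1.5-fold in addition, the calls were 5 higher and 138 lower for H3K14ac, 6 and 117 for H4ac, and 0 and 3 for H3K14ac against H4ac. Without that fold, calls over genes with coding sequence of at least 4500 nt were 0 and 97, 0 and 96, and 1 and 88, with medians of -1.01 and -0.85, differences of -1.04 and -0.88 and an H3 density of 1.47. A threshold of 4000 nt gave 45 and 336, 54 and 326, and 52 higher for H3K14ac against H4ac, with medians of -0.58 and -0.52 and a difference of -0.65 for H3K14ac. A threshold of 6000 nt gave 3 and 62, 2 and 61, and 4 and 54, with medians of -0.92 and -0.74, differences of -0.94 and -0.76 and an H3 density of 1.44. With H3 density as a further term the slopes on length were -0.26 and -0.18, and with coding length in place of row length -0.43 and -0.38. Exons of at least 500 nt left 5 genes higher in the first exon for H3K14ac and 5 for H4ac, and parts of at least 1000 nt left 98 and 96 genes higher in the noncoding rest. These last changes come with fewer or more genes compared. The threshold of 6000 nt kept the 48 genes of 6000 to 8000 nt and the 19 above 8000 nt. How many genes were compared at 4000 nt, with the longer exons or with the longer parts is not given here. The counts of calls under those settings are therefore not read as a stronger or weaker result. The median log2 H3K14ac/H3 was lower at 6000 nt (-0.92) than at 4000 nt (-0.58).

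Leaving out each library in turn gave 23 to 25 higher and 209 to 212 lower for H3K14ac, 29 to 31 and 207 to 209 for H4ac, and 18 to 23 and 156 to 171 for H3K14ac against H4ac. The medians then ranged from -0.70 to -0.69 and from -0.56 to -0.54, the differences from -0.75 to -0.74 and from -0.60 to -0.59, and H3 density from 1.41 to 1.42. First exons were higher in 26 and lower in 1 for H3K14ac, and higher in 24 to 26 and lower in 2 for H4ac. The rest was higher in 145 to 148 and lower in 20 to 23 for H3K14ac, and higher in 144 to 145 and lower in 18 to 21 for H4ac.

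The replicate numbers did not pair the libraries (correlations of deviations of 0.01, -0.01 and 0.12 across 5117 genes). A replicate block gave 25 higher and 212 lower for H3K14ac, 31 and 208 for H4ac, 23 and 175 for H3K14ac against H4ac, 26 and 1 and 26 and 2 for the exons, and 148 and 22 and 145 and 20 for the rest.

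Of 222 ratios of named genes, 215 kept their direction and side of the threshold under all 14 alternatives. The H4ac/H3 of rev3 reversed to 0.060 with voom on recovered tags (adjusted p = 0.00532), and the other changes were gains of a call in pabp, cta3, abc3, vps1301 and myo51 and a loss in cdc6; the cause was not tested. With H3 density in the line, the H4ac/H3 residuals of tlh1 and tlh2 reversed to 0.40 and 0.52, and 22 of 24 residuals kept their sign.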
